A study of Mus musculus with 9 samples.

Results

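The genes described here mark cells other than endothelium in the mouse lung: 26 epithelial genes and 8 fibroblast genes, 34 of the 56748 genes in the deposited count table. They were taken from the table by symbol, on the premise that their RNA in an endothelial sort comes from other lung cells. The premise was not tested, and Abca3 and Lpcat1 were nearly even over the libraries, as given below. The epithelial genes comprise 11 genes of alveolar type 2 (AT2) cells, 5 of alveolar type 1 (AT1) cells, 6 shared by lung epithelia and 4 of the airways. All 34 were found under 1 identifier each, and all 34 passed the filter on low counts that left 19486 tested genes.

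The libraries came from lung cells of C57BL/6 mice 6 weeks old, sorted as DAPI-/CD45-/CD31+, which keeps living cells that carry the endothelial surface protein CD31 (the product of Pecam1) and lack the leukocyte protein CD45 (the product of Ptprc). There were 3 groups of 3 libraries: WT, DNMAML and Notch1f/f. The name DNMAML stands for a truncated Mastermind-like protein that occupies Notch complexes and keeps Notch receptors from switching on their targets. Notch1f/f denotes a floxed, conditional Notch1 allele. Which recombinase was used, where it acts and whether a library is 1 mouse or a pool is not given in the labels. P-values therefore set a group difference against the spread between libraries of the same genotype. In the main fit that spread was estimated from all 9 libraries together, and it may be technical. The libraries held 15522100 to 27842496 counts each, and the lowest count of any of the 34 genes in a library was 4. Levels are given as CPM, the usual depth-scaled counts, here over library sizes scaled by TMM (trimmed mean of M-values), and each group's values are listed in the order of replicates 1, 2 and 3.

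Gas exchange in the lung takes place across a very thin wall. On the air side lie flat AT1 cells, which cover most of the surface, and cuboidal AT2 cells, which make surfactant, the film of lipid and protein that keeps alveoli open. On the blood side lies the capillary endothelium, and fibroblasts and pericytes sit between both layers and build the matrix. A tissue of this kind must be taken apart enzymatically before sorting, and RNA of abundant neighbouring cells is commonly found in sorted fractions.

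Notch1, the targeted gene, was at 766 to 909 CPM in WT, 679 to 872 CPM in DNMAML and 29.5 to 176 CPM in Notch1f/f, so it was low in each library of that label. The endothelial cadherin gene Cdh5 had 5366 to 6656 CPM, and 16 endothelial markers together ran from 19423 to 25470 CPM. Some single markers were less even than their sum. Between Notch1f/f and WT, 7 of the 16 had an unadjusted p below 0.05 in the edgeR test (13.4% of tested genes). None passed an adjusted p of 0.05, and 10 were lower and 6 higher in Notch1f/f. The log2 difference was 0.78 (SE 0.18) for Emcn and -0.62 (SE 0.17) for Eng. While the endothelial sum spanned 1.31-fold, WT replicate 2, DNMAML replicate 2 and Notch1f/f replicate 1 were lowest of their groups in 24 of 26 epithelial genes. The same held for 10.6% of all tested genes. In AT2 genes Notch1f/f replicate 2 was near WT replicate 2, with sums of 688 and 625 CPM. The sums over the 26 epithelial genes were 2303, 853 and 4644 CPM in WT, 2461, 616 and 2558 CPM in DNMAML, and 519, 1069 and 1885 CPM in Notch1f/f. The sums over the 8 fibroblast genes were 3765, 983 and 1730 CPM in WT, 3606, 575 and 2052 CPM in DNMAML, and 345, 238 and 997 CPM in Notch1f/f. The highest and lowest libraries thus differed 8.94-fold for the epithelial and 15.8-fold for the fibroblast sum. The AT2 genes Abca3 and Lpcat1, nearly even over the libraries, made up 264 CPM of the epithelial sum in Notch1f/f replicate 1. Without them the sum of the other 24 epithelial genes ran from 255 to 4255 CPM, a 16.7-fold range; these genes were left out after their values were seen. That this RNA came from other lung cells was not tested. If it did, fewer such cells and less RNA per cell cannot be told apart in these bulk libraries.

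**Figure D1:**
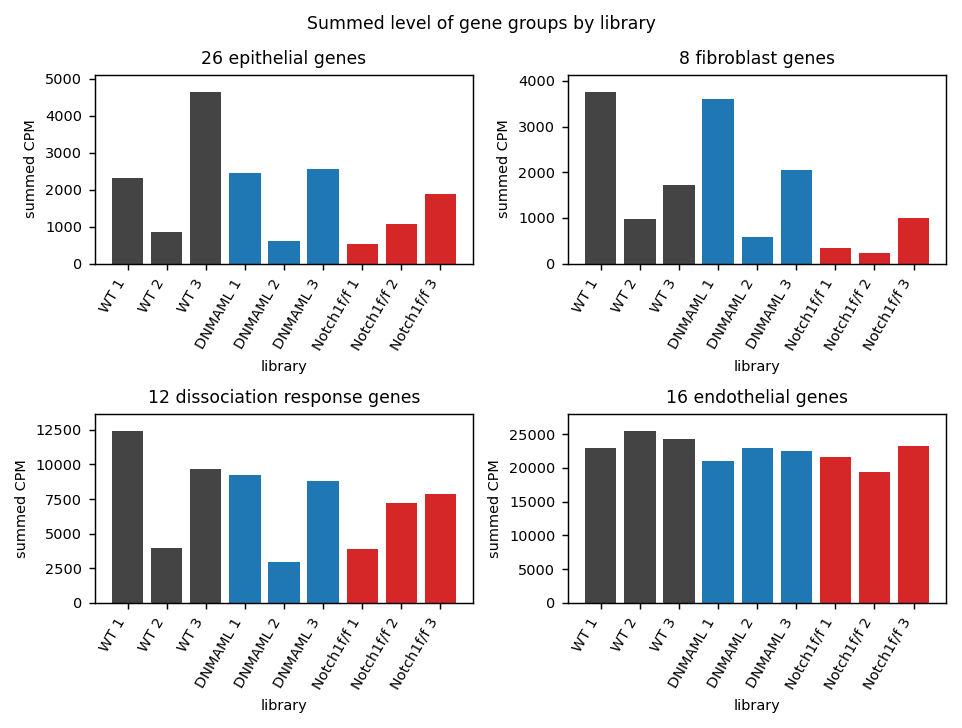
Bars give the summed CPM (y axis, linear, from 0) of 26 epithelial, 8 fibroblast, 12 dissociation response and 16 endothelial genes in each of the 9 libraries (x axis, coloured by group). The epithelial sum runs from 519 to 4644 CPM and the fibroblast sum from 238 to 3765 CPM, while the endothelial sum stays between 19423 and 25470 CPM.

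Within WT, all 34 genes were lowest in replicate 2, and within DNMAML all 34 were again lowest in replicate 2. Over all tested genes the same libraries were the lowest of their group for 37.5% and 36.5%. In Notch1f/f the epithelial and fibroblast genes parted: replicate 1 was lowest for 24 of 26 epithelial genes, and replicate 2 was lowest for 6 of 8 fibroblast genes. The exceptions among the epithelial genes were Hopx and Lpcat1, and among the fibroblast genes Mfap4 and Npnt. For the ratio of the epithelial to the fibroblast sum, the WT libraries gave 0.612, 0.868 and 2.68. The DNMAML libraries gave 0.682, 1.07 and 1.25, and the Notch1f/f libraries gave 1.504, 4.495 and 1.89. Without Abca3 and Lpcat1 the ratio was 0.739 in Notch1f/f replicate 1 and ran from 0.526 in WT replicate 1 to 3.39 in Notch1f/f replicate 2. Both kinds of RNA thus shared their lowest library in WT and in DNMAML, but their ratio was not constant from library to library.

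Genes that respond to tissue dissociation were low in the same 3 libraries as the epithelial genes. The summed level of 12 such genes, Fos and Jun among them, was 12412, 3966 and 9691 CPM in WT, 9223, 2936 and 8824 CPM in DNMAML, and 3917, 7202 and 7846 CPM in Notch1f/f. Fos alone was at 319 CPM in WT replicate 2, 345 CPM in DNMAML replicate 2 and 495 CPM in Notch1f/f replicate 1, and between 1230 and 2006 CPM in the other libraries. Jun showed a narrower gap, at 1778, 1234 and 1414 CPM in these 3 libraries and 1844 CPM in Notch1f/f replicate 2. The libraries lowest in epithelial RNA were thus also lowest in Fos. Within WT, however, the dissociation sum was highest in replicate 1, as the fibroblast sum was, and the epithelial sum in replicate 3. Notch1f/f replicate 2, with Fos at 1307 CPM, had an AT2 sum near that of WT replicate 2 (688 and 625 CPM). The part of dissociation in the levels of the 34 genes was not tested. Of the 3 low libraries, WT replicate 2 had the lowest total count of all 9 (15522100), and DNMAML replicate 2 and Notch1f/f replicate 1 had 19846041 and 21430631 counts. The part of depth was not tested.

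**Figure D2:**
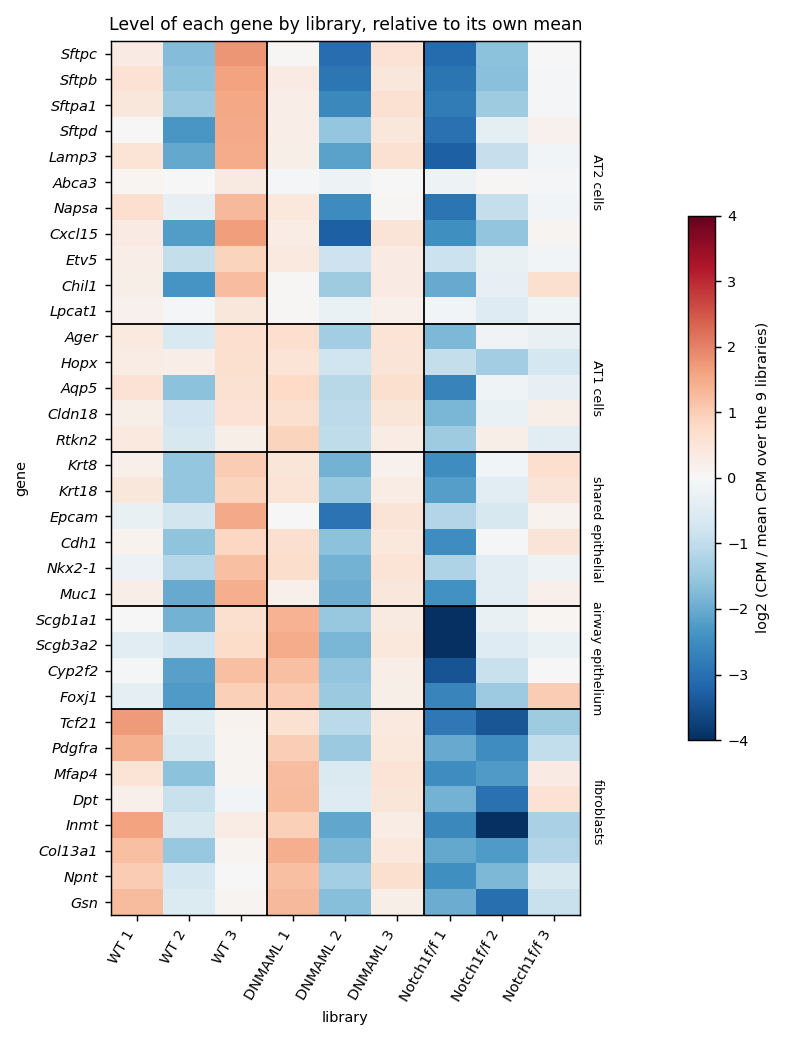
Each cell of the map gives a gene (rows, grouped by cell type) in a library (columns) as the log2 ratio of its CPM to its own mean over the 9 libraries, from -4 (blue) to 4 (red). All 34 genes are lowest of their group in WT replicate 2 and DNMAML replicate 2 and Abca3 and Lpcat1 are nearly even, with ranges of 1.47-fold and 1.97-fold.

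The 11 AT2 genes made up most of the summed CPM of the 26 epithelial genes in every library, without scaling by gene length. In Notch1f/f replicate 1, Abca3 and Lpcat1 held 264 of the 423 CPM of the AT2 sum. Sftpc encodes surfactant protein C, a small hydrophobic protein made by AT2 cells alone, and had 702, 169 and 1876 CPM in WT, 580, 67.5 and 829 CPM in DNMAML, and 65.9, 177 and 552 CPM in Notch1f/f. Sftpb, for the surfactant protein B that spreads the lipid film, had 210, 45.5 and 427 CPM in WT, 175, 19.0 and 190 CPM in DNMAML, and 18.7, 44.3 and 132 CPM in Notch1f/f. Sftpa1, for a collectin that binds microbes, had 245, 64.0 and 520 CPM in WT, 218, 29.9 and 272 CPM in DNMAML, and 25.6, 66.7 and 174 CPM in Notch1f/f. All 3 genes were highest in WT replicate 3 and lowest in Notch1f/f replicate 1, and the groups overlapped. Per length, the level of Sftpc in WT replicate 3, 1815 CPM per kb, exceeded that of the endothelial cadherin Cdh5 in the same library, 1576 CPM per kb. In Notch1f/f replicate 1 the per-length levels were 63.7 CPM per kb for Sftpc and 1421 CPM per kb for Cdh5. Per length, the airway gene Scgb1a1 exceeded Sftpc in DNMAML replicate 1 (742 and 561 CPM per kb) and DNMAML replicate 2 (98.7 and 65.2). It did so too in Notch1f/f replicate 2 (230 and 171 CPM per kb), and was below Sftpc in the other libraries.

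The surfactant genes kept nearly fixed proportions to each other while their levels spread widely. Across the 9 libraries Sftpc spanned a 28.5-fold range, yet Sftpb stood at 22.8 to 30.2 counts per 100 Sftpc counts, a 1.33-fold range. Its exact (Clopper-Pearson) 95% interval was 22.2 to 23.3 in WT replicate 3, the lowest, and 29.2 to 31.3 in DNMAML replicate 1, the highest. Such intervals cover counting error only. Sftpa1 ran from 27.7 to 44.3 counts per 100 Sftpc counts, a 1.60-fold range, and the chemokine gene Cxcl15 from 8.54 to 18.9, a 2.21-fold range. Sftpd, for surfactant protein D, held less closely to the others, with 4.63 to 20.0 counts per 100 Sftpc counts and its highest proportions in DNMAML replicate 2 and Notch1f/f replicate 2.

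**Figure D3:**
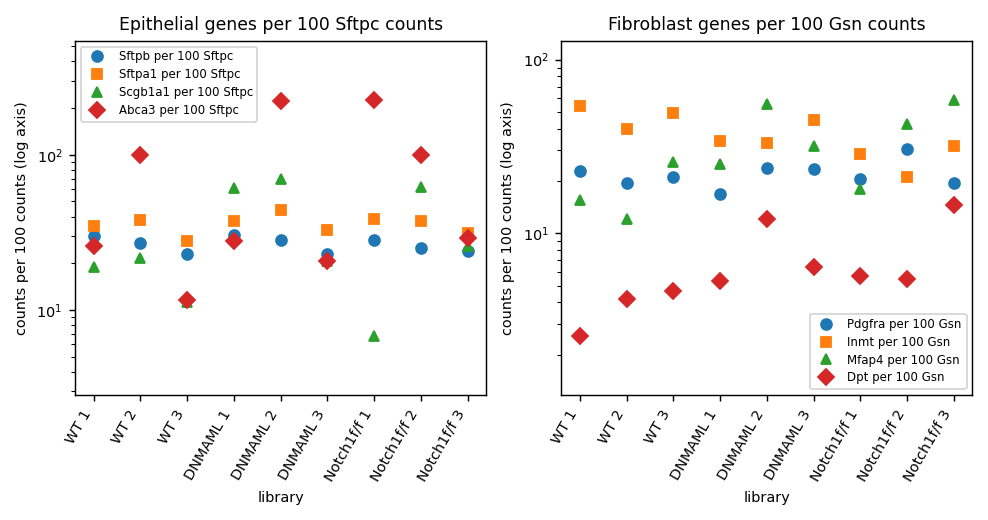
Points give the counts of a gene per 100 counts of Sftpc (left) or of Gsn (right) in each library (x axis), on a log axis. Sftpb and Sftpa1 stay within 22.8 to 44.3 per 100 Sftpc counts, Scgb1a1 runs from 6.79 to 69.7, and Abca3 runs from 11.6 to 226.

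The sequences before the starts of Sftpb and Sftpa1 are shown because these genes varied together in all 9 libraries. NKX2-1, itself encoded by a gene among the 34, is the transcription factor best known for driving surfactant genes. The 250 bases upstream of each start, from RefSeq on GRCm38.p6, lie at chr6:72304360-72304609 (+ strand) for Sftpb and chr14:41131538-41131787 (+ strand) for Sftpa1. The counts were made on GRCm39, where the genes lie at chr6:72281594-72291354 and chr14:40853739-40858409. Capitals mark matches to CTCAAG, a form of the NKX2-1 core, or TATAAA, the TATA box, and the E-box CAGCTG was searched as well, each on both strands.
Sftpb: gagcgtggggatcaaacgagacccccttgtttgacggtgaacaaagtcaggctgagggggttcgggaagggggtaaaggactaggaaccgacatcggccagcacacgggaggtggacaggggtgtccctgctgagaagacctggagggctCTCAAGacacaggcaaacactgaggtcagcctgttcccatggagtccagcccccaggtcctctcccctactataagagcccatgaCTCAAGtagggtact
Sftpa1: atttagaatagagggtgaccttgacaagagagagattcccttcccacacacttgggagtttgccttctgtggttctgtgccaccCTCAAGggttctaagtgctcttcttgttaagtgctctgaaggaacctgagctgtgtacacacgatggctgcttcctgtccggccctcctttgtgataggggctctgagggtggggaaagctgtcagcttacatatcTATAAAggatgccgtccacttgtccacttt
Sftpb held CTCAAG at 100 and 15 bases before the start, and Sftpa1 held CTCAAG at 166 bases and TATAAA at 30 bases before it. The promoter table held 25 of the 34 genes, with 31 starts, and CTCAAG or its reverse occurred in 6 of these 31 windows (19.4%), against 13.3% of all 32851 windows of this length. Of the 21 windows of epithelial genes 3 held it (Sftpb, Sftpa1 and Hopx), and the other 3 belong to the fibroblast genes Dpt, Pdgfra and Tcf21. TATAAA or its reverse occurred in 5 of the 31 windows (16.1%) and in 12.4% of all windows. The motifs did not overlap in the windows printed, and a match is a description of letters, not a binding site. The genes absent from the promoter table were Cdh1, Foxj1, Mfap4, Napsa, Rtkn2, Scgb1a1, Scgb3a2, Sftpc and Sftpd.

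The other AT2 genes differed in how widely they spread over the libraries. Napsa, for the protease napsin A that processes surfactant protein B, had 11.9, 6.0 and 18.5 CPM in WT, 10.03, 1.30 and 7.82 CPM in DNMAML, and 0.985, 3.897 and 6.99 CPM in Notch1f/f. Lamp3, for a membrane protein of lamellar bodies, Cxcl15 and the chitinase-like Chil1 spanned 26.6-fold, 30.3-fold and 12.2-fold ranges over the libraries. Abca3, which pumps lipid into lamellar bodies, had 182, 169 and 219 CPM in WT, 162, 150 and 170 CPM in DNMAML, and 149, 177 and 161 CPM in Notch1f/f. Lpcat1, which makes surfactant phospholipid, had 141, 118 and 171 CPM in WT, 129, 103 and 144 CPM in DNMAML, and 115, 87.0 and 109 CPM in Notch1f/f. The ranges of Abca3 and Lpcat1, 1.47-fold and 1.97-fold, were the only ones among the 34 genes below the median range of all tested genes, 2.94-fold. The median range of the 34 genes was 13.9-fold, and 24 of them spanned more than 10-fold. Abca3 stood at 11.6 counts per 100 Sftpc counts in WT replicate 3 and at 226 in Notch1f/f replicate 1. Within WT and within DNMAML both genes had the same order of libraries as Sftpc, over a much smaller range, and in Notch1f/f their order differed from it. Abca3 and Lpcat1 are given in full because of these ranges, after their values were seen. Abca3 shares 9.80% of its exon bases with the antisense gene D330041H03Rik, and the recorded counting command had no strand option. In all, 8 of the 34 genes share exon bases with another gene, among them Napsa (18.9%, with Gm15396, at 0 counts in every library), Cyp2f2 (13.5%, with Gm15883) and Mfap4 (4.63%, with Mapk7), and their counts are uncertain to that extent. The ETS factor gene Etv5 lay between, with a 3.53-fold range.

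Among AT1 genes, Ager, for the receptor RAGE, had 104, 51.0 and 125 CPM in WT, 126, 29.7 and 115 CPM in DNMAML, and 22.6, 70.9 and 63.5 CPM in Notch1f/f. Cldn18, for a claudin of alveolar tight junctions, had 64.1, 32.3 and 82.0 CPM in WT, 85.6, 26.5 and 76.4 CPM in DNMAML, and 15.4, 45.4 and 64.6 CPM in Notch1f/f. Both were lowest in Notch1f/f replicate 1 and highest in DNMAML replicate 1, with overlap between all groups. AT1 genes varied less than AT2 genes: the median range over libraries was 5.54-fold for the 5 AT1 genes and 20.3-fold for the 11 AT2 genes. Ager ran from 6.65 counts per 100 Sftpc counts in WT replicate 3 to 44.0 in DNMAML replicate 2. The water channel gene Aqp5 spanned an 11.2-fold range.

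Hopx encodes a homeodomain protein without DNA binding. Hopx had 46.9, 45.8 and 59.5 CPM in WT, 55.6, 21.9 and 54.7 CPM in DNMAML, and 19.6, 14.3 and 23.6 CPM in Notch1f/f. Over all libraries it spanned 4.15-fold, somewhat less than Ager (5.57-fold). In WT it spanned 1.30-fold, where Ager spanned 2.45-fold and Sftpc 11.1-fold, and in Notch1f/f it was lowest in replicate 2 and not in replicate 1. Every Notch1f/f library was below every WT library, while Notch1f/f and DNMAML overlapped. Hopx shares 27.2% of its exon bases with the antisense gene Hopxos, so its count is uncertain in part, and Hopxos itself was at 0 to 1.66 CPM.

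Among the genes shared by lung epithelia, Krt8 and Krt18 encode partner keratins of simple epithelia. Krt8 had 24.96, 7.50 and 44.2 CPM in WT, 30.8, 5.89 and 24.5 CPM in DNMAML, and 3.94, 20.2 and 35.0 CPM in Notch1f/f. Krt18 had 16.7, 4.23 and 22.9 CPM in WT, 17.7, 4.29 and 15.2 CPM in DNMAML, and 2.69, 9.17 and 17.4 CPM in Notch1f/f. Muc1, for a membrane mucin, had 15.5, 3.20 and 35.1 CPM in WT, 14.8, 3.30 and 17.8 CPM in DNMAML, and 2.42, 9.48 and 14.8 CPM in Notch1f/f. All 3 had Notch1f/f replicate 1 as their lowest library and Notch1f/f replicate 3 within the WT range. The adhesion gene Epcam, the cadherin gene Cdh1 and Nkx2-1 spanned 21.8-fold, 9.94-fold and 8.58-fold ranges. Epcam was the lowest of the 6 per length in WT, at 2.48 CPM per kb.

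The 4 airway genes had a median range over libraries of 52.0-fold, with 78.9-fold for Scgb1a1 and 95.9-fold for Scgb3a2. Cyp2f2 (25.2-fold) and Foxj1 (12.5-fold) spread no more widely than Sftpc (28.5-fold). All 4 ranges rest on Notch1f/f replicate 1 as the lowest library. Scgb1a1, for the secretoglobin of club cells, had 133, 36.5 and 212 CPM in WT, 353, 47.0 and 172 CPM in DNMAML, and 4.48, 110 and 143 CPM in Notch1f/f. Cyp2f2, for a cytochrome P450 of club cells, had 34.5, 8.08 and 84.4 CPM in WT, 84.5, 12.2 and 44.0 CPM in DNMAML, and 3.36, 19.6 and 36.9 CPM in Notch1f/f. Scgb3a2, another secretoglobin gene, had 4.47, 3.46 and 10.2 CPM in WT, 17.2, 1.70 and 8.19 CPM in DNMAML, and 0.179, 4.25 and 5.07 CPM in Notch1f/f, the lowest of these resting on 4 counts. All 4 airway genes, with Foxj1 of ciliated cells, were highest in DNMAML replicate 1 and lowest in Notch1f/f replicate 1, as Ager and Cldn18 were, while Sftpc was highest in WT replicate 3. Scgb1a1 stood at 6.79 counts per 100 Sftpc counts in Notch1f/f replicate 1 (exact 95% interval 5.49 to 8.32) and at 69.7 in DNMAML replicate 2 (64.0 to 75.8), a 10.3-fold range. The proportion of airway to AT2 RNA therefore differed between libraries by far more than counting error, and it did so within each genotype.

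The 8 fibroblast genes were all lower on average in Notch1f/f than in WT, to different degrees. None of them passed an adjusted p of 0.05 in the edgeR test. Tcf21, for a transcription factor of lung mesenchyme, had 62.3, 13.7 and 21.0 CPM in WT, 29.0, 9.04 and 24.8 CPM in DNMAML, and 2.60, 1.77 and 7.10 CPM in Notch1f/f. Inmt, for an N-methyltransferase abundant in alveolar fibroblasts, had 893, 188 and 361 CPM in WT, 566, 69.8 and 361 CPM in DNMAML, and 49.3, 17.7 and 119 CPM in Notch1f/f. Every Notch1f/f library lay below every WT library for both genes, and for Tcf21 also below every DNMAML library. Pdgfra, for a growth factor receptor of alveolar fibroblasts, had 379, 91.2 and 154 CPM in WT, 281, 50.6 and 189 CPM in DNMAML, and 35.4, 25.6 and 72.5 CPM in Notch1f/f. Gsn, for the actin-severing protein gelsolin, had 1648, 470 and 734 CPM in WT, 1670, 212 and 806 CPM in DNMAML, and 173, 84.1 and 374 CPM in Notch1f/f. For Pdgfra and Gsn too, Notch1f/f lay below WT without overlap but overlapped DNMAML through its replicate 2.

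The other fibroblast genes overlapped between all groups. Col13a1, for a transmembrane collagen, had 29.7, 4.49 and 13.8 CPM in WT, 35.6, 3.70 and 17.1 CPM in DNMAML, and 3.13, 2.702 and 5.75 CPM in Notch1f/f. Mfap4, for a protein of elastic fibres, had 255, 56.7 and 190 CPM in WT, 416, 117 and 255 CPM in DNMAML, and 31.2, 36.0 and 220 CPM in Notch1f/f. Dpt, for the matrix protein dermatopontin, had 42.3, 19.7 and 34.2 CPM in WT, 88.8, 25.8 and 51.2 CPM in DNMAML, and 9.85, 4.61 and 54.6 CPM in Notch1f/f. Mfap4 and Dpt were within or above the WT range in Notch1f/f replicate 3, where Tcf21 and Inmt were below it. Npnt, for the matrix protein nephronectin, spanned a 12.7-fold range. Relative to Gsn, Pdgfra kept 16.8 to 30.5 counts per 100 Gsn counts, a 1.81-fold range, while Inmt ran from 21.1 to 54.2 and Dpt from 2.57 to 14.6. Mfap4 ran from 12.1 counts per 100 Gsn counts in WT replicate 2 to 58.8 in Notch1f/f replicate 3.

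The upstream windows of Tcf21 and Inmt are shown because these genes had the largest differences between Notch1f/f and WT. On GRCm39 the genes themselves lie at chr10:22693180-22696073 (Tcf21) and chr6:55147611-55152028 (Inmt). The windows lie at chr10:22820144-22820393 (- strand) for Tcf21 and chr6:55174991-55175240 (- strand) for Inmt, on GRCm38.p6, with capitals as above and CTTGAG as the reverse of CTCAAG.
Tcf21: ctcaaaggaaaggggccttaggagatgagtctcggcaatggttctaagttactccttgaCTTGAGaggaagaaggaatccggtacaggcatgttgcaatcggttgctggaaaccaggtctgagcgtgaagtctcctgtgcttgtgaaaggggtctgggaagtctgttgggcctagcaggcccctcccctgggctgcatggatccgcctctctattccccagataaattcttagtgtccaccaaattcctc
Inmt: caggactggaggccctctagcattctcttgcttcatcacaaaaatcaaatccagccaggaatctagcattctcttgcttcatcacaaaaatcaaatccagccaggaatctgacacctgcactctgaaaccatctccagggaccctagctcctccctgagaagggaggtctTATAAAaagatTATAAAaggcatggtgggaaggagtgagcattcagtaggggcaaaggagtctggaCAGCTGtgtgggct
Tcf21 held CTTGAG at 191 bases before the start, and Inmt held TATAAA at 80 and 69 bases and CAGCTG at 14 bases. CAGCTG occurred in 6 of the 31 windows of the listed genes (19.4%) and in 13.0% of all windows.

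The comparison of DNMAML with WT addressed the genotype in which Notch-driven transcription is meant to be blocked. None of the 34 genes passed a Benjamini-Hochberg adjusted p of 0.05 in the edgeR quasi-likelihood test, where 1 of 19486 tested genes did (0.00513%). At an unadjusted p below 0.05, 0 of the 34 passed, against 5.97% of tested genes. DESeq2 also called 0 of the 34 (1.09% of tested genes), as did limma-voom (0%). Of the 34 genes, 22 were lower in DNMAML on average, against 48.9% of tested genes. All 11 AT2 genes and 5 of 6 shared epithelial genes had negative log2 differences, and all 4 airway genes had positive ones. The median log2 difference was -0.20 over the 34 genes and 0.01 over all tested genes, and it was -0.62 for AT2 and 0.44 for airway genes. Mean Sftpc was 916 ± 874 CPM in the WT and 492 ± 388 CPM in the DNMAML libraries (SD, n = 3), a log2 difference of -0.90 (SE 1.26). For Scgb1a1 it was 0.58 (SE 1.27), and for Abca3, whose libraries were closer together, -0.24 (SE 0.13). In 0 of the 34 genes did the groups stand apart without overlap, against 14.4% of tested genes.

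Single libraries set the direction in this comparison. Without WT replicate 3, 26 of the 34 genes were higher in DNMAML and the median was 0.29; without DNMAML replicate 1, 2 were higher and the median was -0.59. Without DNMAML replicate 2, 20 were higher, and the median was 0.15. WT and DNMAML libraries with the same number deviated together, though the labels state no such pairing. These 6 libraries were therefore also fitted with the replicate number as a block. In that fit Mfap4 and Dpt were higher in DNMAML, with log2 changes of 0.72 (SE 0.12) and 0.69 (SE 0.14) and edgeR adjusted p = 0.0159 and 0.0461. Of 18117 genes tested there, 1.17% passed as higher. With the block in all 9 libraries 0 of the 34 passed (0.0205% of tested genes), and without the filter on low counts 7 of the 34 did (4 lower, 3 higher; 1.38% of the genes tested there). Over all other settings the adjusted p ran from 0.0059 to 1 for Mfap4 and from 0.0101 to 1 for Dpt.

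The comparison of Notch1f/f with WT addressed mice that carry the conditional Notch1 allele. All 34 genes were lower on average in Notch1f/f, against 48.3% of all tested genes, yet none passed an adjusted p of 0.05 in the edgeR test, where 0.836% of tested genes did. At an unadjusted p below 0.05, 5 of the 34 passed (Tcf21, Hopx, Inmt, Pdgfra and Lpcat1). This share of 14.7% was near the 13.4% of tested genes that passed in either direction. All 5 were lower, as 6.64% of tested genes were at that threshold. DESeq2 called 3 of the 34 lower (Hopx, Tcf21 and Inmt; 8.82%, against 2.65% of tested genes), and limma-voom called 0 (0.251% of tested genes). Without the filter on low counts edgeR called 19 of the 34 lower (2.26% of the genes tested there), and with the replicate number as a block in all 9 libraries it called 2 lower (Hopx and Tcf21; 0.765%). In 6 of the 34 every Notch1f/f library was below every WT library (17.6%, against 9.33% of tested genes): Tcf21, Inmt, Pdgfra, Gsn, Hopx and Lpcat1. The median log2 difference was -0.95 over the 34 genes and 0.02 over all tested genes. By role it was -2.12 for fibroblast, -1.54 for AT2, -0.84 for AT1, -0.75 for airway and -0.71 for shared epithelial genes.

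**Figure D4:**
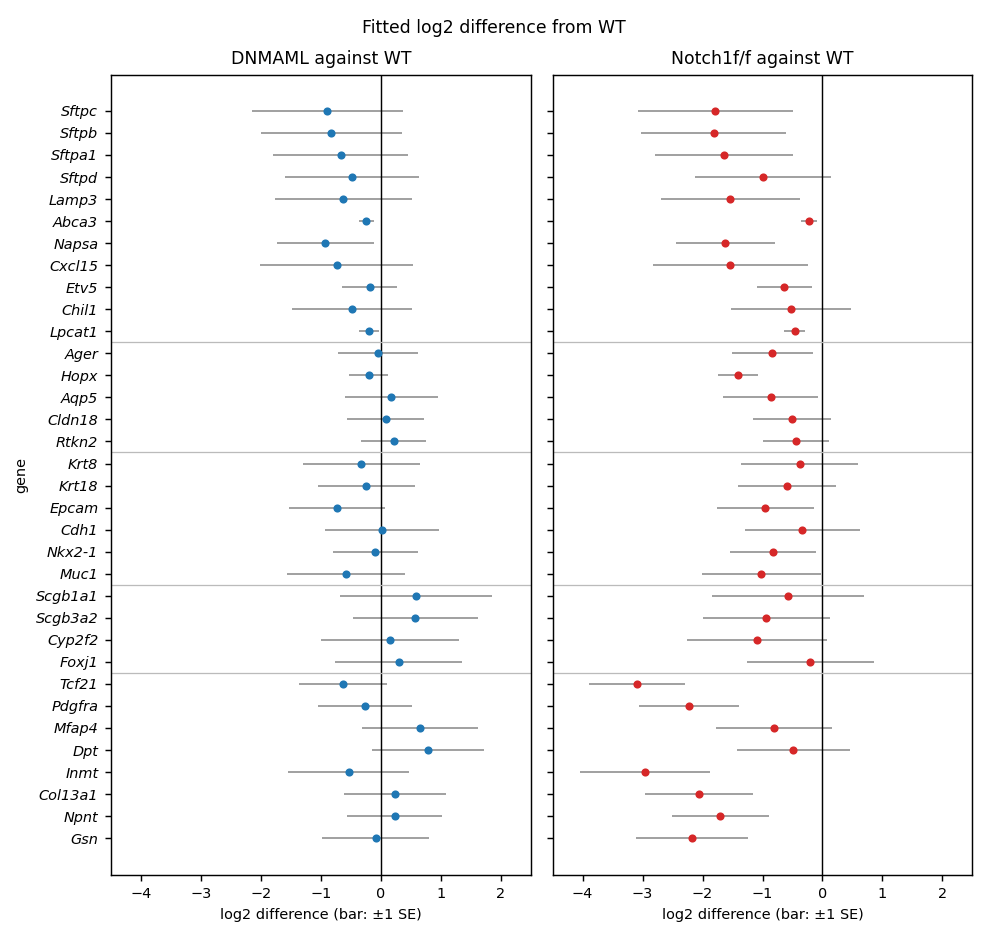
Points give the fitted log2 difference from WT (x axis) of each of the 34 genes (y axis, grouped by role) in DNMAML (left) and Notch1f/f (right), with bars of ±1 SE. All 34 points lie below 0 in Notch1f/f, from -0.20 for Foxj1 to -3.09 for Tcf21, and on both sides of 0 in DNMAML.

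Mean Tcf21 was 32.3 ± 26.2 CPM in the WT and 3.82 ± 2.87 CPM in the Notch1f/f libraries (SD, n = 3), 8.46-fold lower, with a log2 difference of -3.09 (SE 0.80). Its adjusted p in edgeR was 0.133, and 3.64e-25 to 0.429 over the other settings. Mean Inmt was 481 ± 368 CPM in the WT and 61.9 ± 51.7 CPM in the Notch1f/f libraries, a log2 difference of -2.96 (SE 1.09, edgeR adjusted p = 0.304; 1.1e-59 to 0.653 over the other settings). Mean Hopx was 50.8 ± 7.63 CPM in the WT and 19.2 ± 4.62 CPM in the Notch1f/f libraries, a smaller log2 difference of -1.41 with a smaller error (SE 0.33, edgeR adjusted p = 0.082; 9.5e-10 to 0.309 over the other settings). The lowest p of each came from the fit without a filter, in which the median SE of the 34 genes was 0.20 in place of 0.93. Without DNMAML replicate 2, Hopx passed in the edgeR test (adjusted p = 0.0061). Sftpc had 265 ± 255 CPM in Notch1f/f and a log2 difference of -1.79 from WT (SE 1.29), within the spread between libraries. Abca3 and Lpcat1 had log2 differences of -0.23 (SE 0.13) and -0.47 (SE 0.17, edgeR adjusted p = 0.238). Without WT replicate 3 the median over the 34 genes was -0.39, with 26 of 34 lower, and without Notch1f/f replicate 3 it was -1.59 with 34 of 34 lower.

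**Figure D5:**
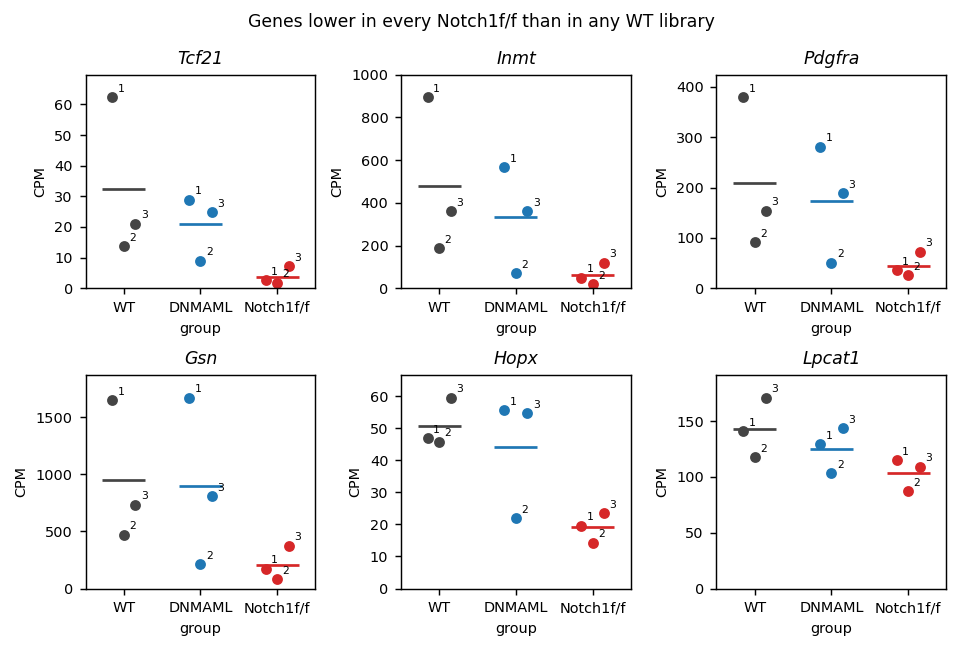
Points give the CPM (y axis, linear, from 0) of 6 genes in each library, by group (x axis), labelled with the replicate number, and lines give group means. In each panel all 3 Notch1f/f points lie below the lowest WT point, for Tcf21 at 1.77 to 7.10 against 13.7 CPM or more.

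Between Notch1f/f and DNMAML, 33 of 34 genes were lower in Notch1f/f (49.5% of tested genes), with Abca3 as the exception at 0.01 (SE 0.13), a sign that turned when DNMAML replicate 2 or Notch1f/f replicate 2 was left out. None passed in the edgeR test, where 0.0205% of tested genes did, nor with the replicate number as a block in all 9 libraries (0.0205%). At an unadjusted p below 0.05, 4 of 34 passed, all lower (3.96% of tested genes). DESeq2 called Hopx alone (0.595% of tested genes lower), limma-voom called 0 (0.0154%), and edgeR without the filter called 18 lower (1.56%). The median log2 difference was -0.85 over the 34 genes, -2.03 over the fibroblast genes and -0.68 over the epithelial genes. Tcf21, with a log2 difference of -2.47 (SE 0.79, edgeR adjusted p = 0.632; 2.2e-16 to 1 over the other settings), was the gene of the 34 whose groups did not overlap (2.94%, against 5.32% of tested genes lower without overlap). This comparison shares its Notch1f/f libraries with the previous one. Hopx passed without DNMAML replicate 2, the DNMAML library lowest in it (log2 change -1.54, edgeR adjusted p = 0.0158).

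Further genes of the same cell types, listed apart from the 34, were read in the same fit. None of 21 tested AT2, 19 AT1, 24 epithelial, 20 airway and 36 fibroblast genes passed in any of the 3 comparisons in the edgeR test. Of these, 17, 16, 21, 16 and 29 were lower in Notch1f/f than in WT, with median log2 differences of -1.03, -0.44, -0.73, -0.32 and -0.80, where 48.3% of all tested genes were lower. At an unadjusted p below 0.05, 2, 3, 2, 3 and 8 of them passed in either direction, against 13.4% of all tested genes. Several of these genes are also made by endothelium, such as Vegfa and Cav1. Tbx5, for a transcription factor of lung mesenchyme, had 61.3, 37.0 and 28.7 CPM in WT, 35.4, 14.0 and 31.3 CPM in DNMAML and 5.19, 6.11 and 12.4 CPM in Notch1f/f (log2 difference from WT -2.43, SE 0.47, edgeR adjusted p = 0.0525). Eln, for elastin, went the other way, at 140, 163 and 155 CPM in the WT and 192, 231 and 281 CPM in the Notch1f/f libraries (0.62, SE 0.16, edgeR adjusted p = 0.1). Cyp4b1, listed for club cells, was at 1067, 1577 and 1042 CPM in the WT and 446, 186 and 500 CPM in the Notch1f/f libraries, and was highest in the WT library lowest in Scgb1a1.

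Like the 8 fibroblast genes, most markers of pericytes and smooth muscle were lower in Notch1f/f. Their 21 genes summed to 2424, 2214 and 1640 CPM in WT, 2031, 1059 and 1945 CPM in DNMAML, and 550, 520 and 843 CPM in Notch1f/f. Of these 21 genes 17 were lower and 4 higher in Notch1f/f than in WT. In the edgeR test 6 of 21 fell against WT, where 0.323% of all tested genes did, among them Pdzd2 by 1.39 (SE 0.21) and Cspg4 by 2.14 (SE 0.32), both at an adjusted p = 0.0165. In WT replicate 2 the mural sum was not reduced as the fibroblast sum was, and the pericyte receptor gene Pdgfrb stood at 43.3 counts per 100 Gsn counts there and at 15.2 in WT replicate 1. Leukocyte genes summed to 456, 132 and 841 CPM in WT, 689, 413 and 396 CPM in DNMAML, and 191, 166 and 359 CPM in Notch1f/f, with Ptprc at 0.408 to 27.95 CPM. That sum includes Lyz2, which was also listed for AT2 cells. Gene by gene the direction differed from the Notch1f/f sum. Of 13 tested leukocyte genes, 11 were higher and 2 lower than in WT in both Notch1f/f and DNMAML (median log2 differences 0.95 and 1.20). Genes of platelets and red cells summed to 142 to 1065 CPM over all libraries, and were highest in DNMAML replicate 1, as the airway genes were. Mesothelial genes summed to 7.79 to 34.5 CPM, with 1 of 8 at 0 in every library. The part of these other cells in the levels of the 34 genes was not tested.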

How the data were processed

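RNA of 9 libraries of sorted mouse lung endothelial cells was depleted of rRNA and made into stranded libraries, all together, per the labels' protocols. The authors deposited whole-number read counts per gene from featureCounts 2.0.1 with Ensembl release 107 on GRCm39, per the file headers, with no option for strand, pairs or multiply mapped reads. The submitters' processing notes name STAR 2.7 and build mm10, which differs from the header. Symbols came from a GRCm38 annotation and matched 52073 of 56748 identifiers. Between 76.6% and 89.0% of counts under 200 were even, so mates may be counted separately.

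Genes were kept by filterByExpr (19486 left) and tested with edgeR 4.0.16 in R 4.3.3, with TMM scaling, a robust quasi-likelihood model on all 9 libraries, genotype as the only term, and Benjamini-Hochberg adjustment over all tested genes. SE is the absolute log2 difference over the square root of F. The test was also run on simulated data with known changes. DESeq2 1.42.0, limma 3.58.1 (voom), other scaling, no filter, halved counts, a replicate block and leaving out each library were alternatives.

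The labels number replicates without saying what a number marks. Deviations from group means correlated at 0.238, 0.344 and 0.179 between same-numbered WT and DNMAML libraries. These 6 were therefore also fitted with the number as a block, a pairing that the design does not state. The data do not settle it. Notch1f/f replicate 1 correlated at 0.352 with WT replicate 2 and at 0.306 with DNMAML replicate 2, across numbers. The Notch1f/f libraries were not taken as paired by number (same-numbered correlations -0.13 to 0.212). A gene got its 9 values in the text if it passed a test, was among the 3 highest per kb of its role in WT, or had 1 of the 4 largest log2 differences in a comparison at a mean of at least 1 CPM (20 genes). Abca3 and Lpcat1 were added after their values were seen. Other genes came from 11 lists, up to 2 each by the lowest p in Notch1f/f against WT. From these lists, Cdh5, Fos, Pdgfrb and Ptprc were given outside that rule. The genes and lists were chosen with earlier results of these data known.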

Additional observations from a re-analysis of the deposited data

How the results depend on the processing

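With DESeq2, 3 of the 34 genes were called for Notch1f/f against WT and 1 for Notch1f/f against DNMAML. Without the filter on low counts 7, 19 and 18 genes were called for DNMAML against WT, Notch1f/f against WT and Notch1f/f against DNMAML; the median SE of the 34 genes fell from 0.93 to 0.20 there, and the cause was not tested. With the replicate block, 2 were called for DNMAML against WT in the 6 libraries (Mfap4 and Dpt, higher) and 0 in all 9. The Notch1f/f libraries were not taken as paired by number. With the block in all 9 libraries, 2 were called for Notch1f/f against WT (Hopx and Tcf21, lower) and 0 for Notch1f/f against DNMAML. In that fit Krt8 had a log2 difference of 0.10 between Notch1f/f and DNMAML in place of -0.06. Leaving out a library gave 0 to 1 calls in both comparisons with Notch1f/f, the 1 being Hopx without DNMAML replicate 2, and 0 in DNMAML against WT. The median log2 difference ran from -0.59 to 0.29 for DNMAML against WT, from -1.59 to -0.39 for Notch1f/f against WT and from -1.53 to -0.44 for Notch1f/f against DNMAML. Library totals alone, halved counts, limma-voom and the 6 libraries without a block (chosen after seeing the data) called 0 wherever they were run.

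Of the 22 genes given in full, 17 changed sign in DNMAML against WT when a library was left out, with log2 differences of -1.50 to 0.19 for Sftpc, -1.31 to 0.016 for Sftpb, -1.15 to 0.18 for Sftpa1, -0.36 to 0.38 for Ager, -0.40 to 0.13 for Hopx, -0.21 to 0.45 for Cldn18, -0.75 to 0.34 for Krt8, -0.67 to 0.25 for Krt18, -1.07 to 0.37 for Muc1, -0.22 to 1.18 for Scgb1a1, -0.28 to 1.20 for Scgb3a2, -0.59 to 1.15 for Cyp2f2, -0.98 to 0.27 for Tcf21, -0.79 to 0.50 for Pdgfra, -1.16 to 0.28 for Inmt, -0.61 to 1.04 for Col13a1 and -0.90 to 0.57 for Gsn. In Notch1f/f against WT this held for Krt8 (-1.09 to 0.27), Scgb1a1 (-1.16 to 0.013) and Dpt (-2.15 to 0.0019), and in Notch1f/f against DNMAML for Krt8 (-0.77 to 0.42), Krt18 (-1.08 to 0.082), Muc1 (-1.02 to 0.0022) and Abca3 (-0.046 to 0.068). The lowest value of any gene, Scgb3a2 in Notch1f/f replicate 1, rests on 4 counts.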
